A study of Mus musculus with 2 samples.

Results

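The 7 chemokine receptor genes Ccr2, Ccr4, Ccr8, Ccr9, Cxcr3, Cxcr4 and Cxcr6 were followed in IL-10-producing CD4+ T cells of the mouse small intestine and spleen. They were taken by name from a list of receptors, chosen with earlier results of these data known. All 7 were found among the 28009 genes of both count tables. Each of them had UMIs (unique molecular identifiers, 1 per captured RNA molecule) in both tissues. The comparisons asked how the level of each receptor, and the share of cells with its RNA, differed between the tissues, between cells with much and little Ccl5 RNA, and between cells with and without a Foxp3 UMI.

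Chemokine receptors are G protein-coupled receptors that guide migrating leukocytes along gradients of small secreted proteins, the chemokines. CCR9 and its ligand CCL25, made by the epithelium of the small intestine, are the classical pair for homing of T cells to the gut. CXCR6 binds CXCL16 and is carried by many T cells that stay in tissues. CXCR3 binds the interferon-induced chemokines CXCL9 and CXCL10 and is a receptor of type 1 effector T cells, CCR2 binds CCL2 and related chemokines of inflamed tissue, CXCR4 binds CXCL12, CCR4 binds CCL17 and CCL22, and CCR8 binds CCL1 and is found on type 2 helper cells and on a part of the Foxp3+ regulatory T cells.

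Cells came from IL-10eGFP Foxp3mRFP double reporter mice of 8 to 16 weeks of age, in which green and red fluorescent proteins mark Il10 and Foxp3 expression. All mice had received anti-CD3 antibody (clone 2C11) intraperitoneally in 2 doses of 15 µg, on day 0 and on day 2, and organs were taken 4 h after the later dose, so both groups share this stimulus. IL-10eGFP+ CD4+ cells, with the Foxp3+ cells among them, were sorted from the spleen and from the small intestine. The study's methods describe intraepithelial and lamina propria lymphocytes of the intestine, and do not say which of them went into this library. By these methods, intestinal lymphocytes were freed with warm EDTA and collagenase steps and a Percoll gradient, which are not described for the spleen. An effect of this handling cannot be told apart from one of the tissue. Each tissue gave 1 droplet library (10x Genomics), the number of mice behind a library is not given in the sources used here, and cells of untreated mice were not analysed here. With 1 library per tissue, a difference between the tissues cannot be told apart from a difference between 2 libraries, no test over samples could be made, and the 95% intervals given below cover counting error only.

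The small intestinal library held 1474 barcodes and 5693395 UMIs, and the splenic library 1738 barcodes and 11103530 UMIs, with 0 barcodes in common. After removal of cells of low quality and of cells called G2/M, 1278 small intestinal cells with a median of 3696 UMIs and 1469 splenic cells with a median of 5408 UMIs were kept. Shares of cells were therefore also taken after thinning each cell to 2089 UMIs, called equal depth here, which left 1150 small intestinal and 1439 splenic cells. Levels are UMIs per 1000000 UMIs of a group of cells (CPM). T cell genes (4 of the 6 marker genes were listed) were found in 99.7% of the small intestinal and 99.9% of the splenic cells, Cd4 stood at 399 and 208 CPM, and an Il10 UMI was found in 72.5% and 64.9% of cells. A Cd8a or Cd8b1 UMI, which a sort for CD4+ cells would not be chosen for, was found in 15.96% of the small intestinal and 7.15% of the splenic cells, where Cd8a itself had 0 UMIs. Of other cell types, B cell genes summed to 17.5 and 6.77 CPM, endothelial and stromal genes to 14.3 and 25.8 CPM, epithelial genes to 10.9 and 31.7 CPM (Epcam alone in the spleen) and myeloid genes to 211 and 176 CPM, with Lyz2 at 0 in small intestinal and Csf1r at 0 in splenic cells, while Ncr1 and Klra8 of NK cells were at 0 in both. The part of these cells in the results was not tested, except where values without the cells with a Cd8a or Cd8b1 UMI are given.

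Of the 7 genes, 5 lie on chromosome 9 of the mouse genome (GRCm38, GENCODE M21 gene models), all 7 being protein-coding. Ccr4 spans chr9:114490316-114504916 on the minus strand, and Ccr8 (chr9:120092114-120094906), Ccr9 (chr9:123678439-123784330), Cxcr6 (chr9:123806475-123811760) and Ccr2 (chr9:124101950-124113557) lie on the plus strand. Ccr9 and Cxcr6 are neighbours with 22.1 kb between them. Cxcr3 (chrX:101731535-101734269) and Cxcr4 (chr1:128588199-128592293) lie on the minus strand of other chromosomes. The promoter stretches of Ccr9, Cxcr6 and Ccr8 are shown because Ccr9 and Ccr8 stood at opposite ends of the comparison of tissues and Cxcr6 is the neighbour of Ccr9. They are RefSeq sequences of GRCm38.p6, plus strand, 5′ to 3′, cut back so as to hold no exon base of the gene itself, and capitals mark the motif matches described below. For Ccr9, 1 of the 6 GENCODE transcripts starts further upstream, so that its stretch (chr9:123766961-123767168) lies in an intron of that transcript. The stretch of Cxcr6 is chr9:123806227-123806474 and that of Ccr8 is chr9:120091883-120092113.
Ccr9: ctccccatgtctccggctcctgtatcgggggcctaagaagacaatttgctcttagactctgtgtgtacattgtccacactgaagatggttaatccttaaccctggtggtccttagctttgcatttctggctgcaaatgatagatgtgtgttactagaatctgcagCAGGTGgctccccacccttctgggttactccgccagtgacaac
Cxcr6: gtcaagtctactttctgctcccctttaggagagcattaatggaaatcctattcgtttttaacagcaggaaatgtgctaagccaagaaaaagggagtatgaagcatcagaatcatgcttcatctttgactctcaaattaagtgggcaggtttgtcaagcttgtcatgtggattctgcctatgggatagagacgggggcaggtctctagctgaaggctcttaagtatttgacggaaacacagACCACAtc
Ccr8: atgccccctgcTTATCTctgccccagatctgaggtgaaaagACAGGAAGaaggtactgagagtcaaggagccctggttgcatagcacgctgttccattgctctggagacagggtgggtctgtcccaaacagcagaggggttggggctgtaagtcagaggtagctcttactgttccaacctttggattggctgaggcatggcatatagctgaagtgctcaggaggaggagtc

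Letters of 8 motifs were searched on both strands of the 250 bases before the start of all 32851 RefSeq promoters. The E-box CACCTG was found in Ccr9 (85 bases before the start), Ccr4 and Cxcr3, against 17.2% of all promoters. The RUNX letters TGTGGT were found in Cxcr6 (10 bases before the start) and in Cxcr3, where they directly follow the E-box, against 14.0% of promoters. The GATA letters AGATAA were found in Ccr2 and Ccr8 (9.99% of promoters), the ETS letters ACAGGAAG in Ccr4 and Ccr8 (2.90%), and the AP-1 letters TGANTCA in Ccr4 (6.75%). The T-box letters AGGTGTGA (1.12% of promoters), which share AGGTG with the reversed E-box, the STAT letters TTCNNNGAA (7.02%) and the nuclear receptor letters AGGTCA (14.0%) were found in none of the 7 windows. By the GENCODE models 233 of the 250 window bases of Ccr2 and 122 of those of Cxcr3 lie in exons of the gene itself. The matches of Ccr2 and Cxcr3 all lie in these exon bases. The window of Ccr4 lies within a transcript of Ccr4 that starts further upstream. A match describes letters in a window and is not a binding site.

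The gut-homing receptor Ccr9 was the receptor with the largest rise of the 7 in the small intestine, Cxcr4 and Cxcr6 were higher there as well, and Cxcr3, Ccr4 and Ccr8 were higher in the spleen. Ccr9 stood at 268 CPM (253 to 282, from 1347 UMIs) in small intestinal cells and at 14.1 CPM (11.8 to 16.7, from 129 UMIs) in splenic cells. The level was 19.0-fold higher in the small intestine, a log2 ratio of 4.25 (3.99 to 4.52), which lay above that of 99.5% of all genes compared. A Ccr9 UMI was found in 52.6% of small intestinal and 4.42% of splenic cells as deposited, and at equal depth in 37.7% (34.8 to 40.5%) and 1.74% (1.13 to 2.55%). The intervals of the tissues were far apart on each of these scales.

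Cxcr4, the receptor for CXCL12, stood at 32.0 CPM (27.2 to 37.3, 161 UMIs) in small intestinal cells and 8.51 CPM (6.73 to 10.6, 78 UMIs) in splenic cells, a log2 ratio of 1.91 (1.51 to 2.32). Its share at equal depth was 5.48% against 2.50%, a difference of 2.98 percentage points (1.47 to 4.60). These shares rest on few UMIs, and the mean over all possible thinnings, which removes the chance of a single draw, was 6.14% against 2.05%. As deposited, 10.0% of small intestinal and 4.97% of splenic cells had a Cxcr4 UMI.

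Cxcr6 gave a small difference in level and a large one in the share of cells. It stood at 372 CPM (355 to 389, 1871 UMIs) in small intestinal cells and 252 CPM (242 to 262, 2306 UMIs) in splenic cells, a log2 ratio of 0.56 (0.47 to 0.65) that did not reach 2-fold. At equal depth 46.7% (43.8 to 49.6%) of small intestinal cells had a Cxcr6 UMI against 19.8% (17.8 to 22.0%) of splenic cells, a difference of 26.9 points (23.3 to 30.4). As deposited the shares were 61.1% and 28.7%. Splenic cells with Cxcr6 held more of its UMIs each, 5.48 per cell with a UMI against 2.40 for the small intestine as deposited, and 2.49 against 1.65 at equal depth. The 10% of splenic cells richest in Cxcr6 (147 cells) held 74.3% of its UMIs, and the like 10% of small intestinal cells (128 cells) held 41.8%. The most in a single cell was 34 UMIs for the spleen and 14 for the small intestine.

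Cxcr3 went the other way. Its level was 66.0 CPM (59.0 to 73.4, 332 UMIs) in small intestinal cells and 160 CPM (152 to 168, 1464 UMIs) in splenic cells, a log2 ratio of -1.28 (-1.45 to -1.10). A Cxcr3 UMI was found at equal depth in 12.4% of small intestinal and 27.0% of splenic cells, a difference of -14.6 points (-17.6 to -11.6), and as deposited in 18.5% and 50.03%. In contrast to Cxcr6, Cxcr3 was spread over the splenic cells, of which the richest 10% held 41.3% of its UMIs.

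Ccr8 was nearly confined to the spleen, with 6 UMIs (1.19 CPM, 0.437 to 2.59) in all small intestinal cells and 258 UMIs (28.2 CPM, 24.8 to 31.8) in the splenic cells. The log2 ratio was -4.56 (-6.02 to -3.42), and the share at equal depth was 0.174% against 4.59% (0.469% and 12.7% as deposited). Ccr4, the CCL17 and CCL22 receptor, was low in both tissues, at 2.98 CPM (1.67 to 4.91, 15 UMIs) and 7.31 CPM (5.67 to 9.29, 67 UMIs), a log2 ratio of -1.30 (-2.21 to -0.47). At equal depth 7 small intestinal and 16 splenic cells had a Ccr4 UMI, 0.609% and 1.11%, and the difference of -0.50 points (-1.26 to 0.27) was not detectable at this depth. As deposited the shares were 1.10% and 3.54%.

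Ccr2 differed least, at 76.3 CPM (68.8 to 84.3, 384 UMIs) in small intestinal cells and 91.0 CPM (85.0 to 97.4, 834 UMIs) in splenic cells. The log2 ratio was -0.25 (-0.43 to -0.08), and the shares at equal depth, 9.65% and 10.6%, differed by -0.91 points (-3.22 to 1.46), an interval that holds 0. Without the cells with a Foxp3 UMI the log2 ratio was -0.0250, and without those with a Cd8a or Cd8b1 UMI it was 0.00105, so the direction in Ccr2 does not hold without the latter. As deposited 13.8% and 18.9% of cells had a Ccr2 UMI.

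**Figure D1:**
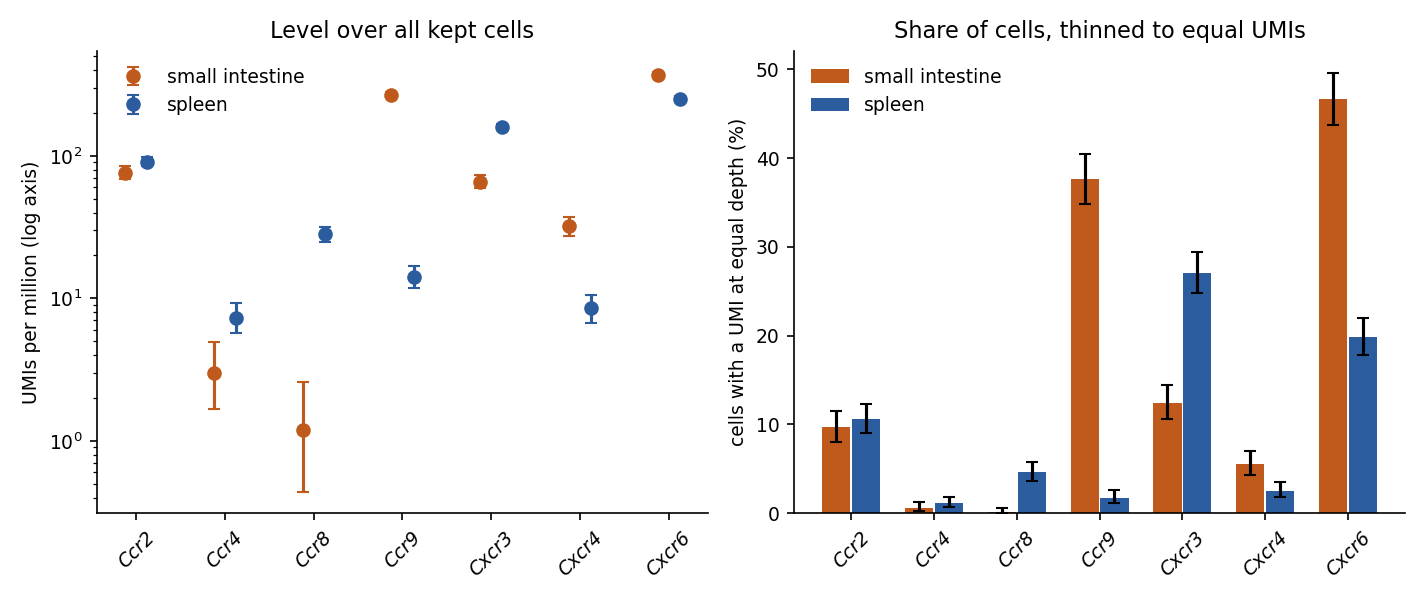
Left, level of the 7 receptors in UMIs per 1000000 (log axis) over the kept cells of each library, with exact Poisson 95% intervals. Right, share of cells with a UMI in percent after thinning to 2089 UMIs, with exact binomial 95% intervals. Small intestine is orange and spleen blue. Ccr9, Cxcr4 and Cxcr6 are higher in the small intestine in both panels, Ccr8 and Cxcr3 are higher in the spleen, and the intervals of Ccr2 nearly touch on the left and overlap on the right.

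To read these counts, all genes with at least 50 UMIs in both tissues together were compared in the same way. Of 9034 genes, 10.4% were at least 2-fold higher and 13.6% at least 2-fold lower in the small intestine. Of the 7 receptors, 2 were at least 2-fold higher (Ccr9, Cxcr4) and 3 at least 2-fold lower (Cxcr3, Ccr4, Ccr8). The list is short and was chosen with earlier results of these data known. No enrichment over that background can be read from these counts. Ccr4 fell short of 2-fold, leaving 2 lower, with the mean of per-cell CPM (-0.99), after thinning (-0.96) and without cells with a Cd8a or Cd8b1 UMI (-0.98). The median log2 ratio of the receptors was -0.25 and that of all genes -0.02, so the list as a whole did not lean far to either tissue.

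**Figure D2:**
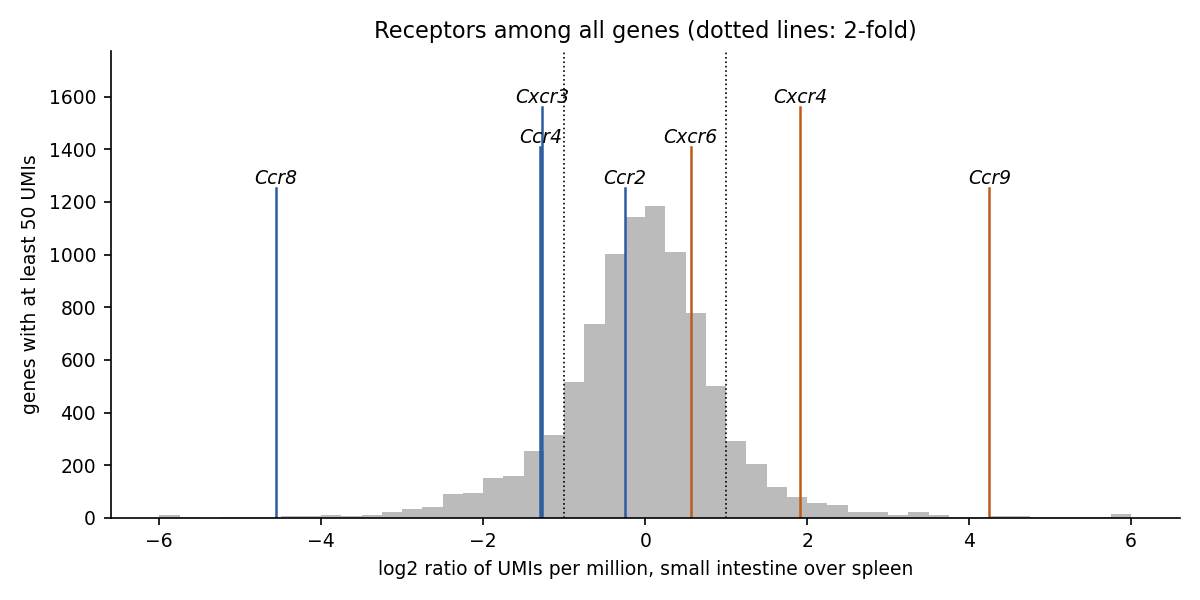
Distribution of the log2 ratio of UMIs per 1000000, small intestine over spleen, over the 9034 genes with at least 50 UMIs (grey, number of genes per bin, genes beyond the axis counted in the end bins). Lines mark the 7 receptors, orange above 0 and blue below 0. Ccr9 at 4.25 and Ccr8 at -4.56 stand in the tails, and Ccr2 at -0.25 stands in the middle.

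The receptors also differed in how they were shared out over cells. At equal depth 26.5% (24.0 to 29.2%) of small intestinal cells and 49.4% (46.8 to 52.0%) of splenic cells had no UMI of any of the 7. At least 2 receptors were found in 30.3% (348 cells) of small intestinal and 14.2% (205 cells) of splenic cells.

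In the spleen Cxcr6 was found in 43.4% of the 152 cells with a Ccr2 UMI and in 17.0% of the cells without, a difference of 26.4 points (18.5 to 34.6). It was also found more often with Ccr9 (10 of 25 cells against 19.4%, a difference of 20.6 points, 3.82 to 39.9) and less often with Cxcr3 (15.9% against 21.2%, -5.30 points, -9.49 to -0.68). Splenic cells with a UMI of the lymph node homing receptor Ccr7 had Cxcr6 in 5.13% against 22.1% of cells, and Ccr8 in 0 of 195 cells, which by the limit of 3 counts allows a share of up to 1.54%, against 5.31%. Small intestinal cells with a Cxcr3 UMI had Ccr9 in 46.9% and the others in 36.3%, a difference of 10.5 points (1.97 to 19.2). Of the other pairs of the 7 receptors there, only Ccr2 with Ccr4 (4 of 7 cells against 9.36%) had an interval that did not hold 0. Among so many pairs, some intervals can miss 0 by counting error alone. These shares describe cells of single libraries, and cells of a library are not replicates.

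**Figure D3:**
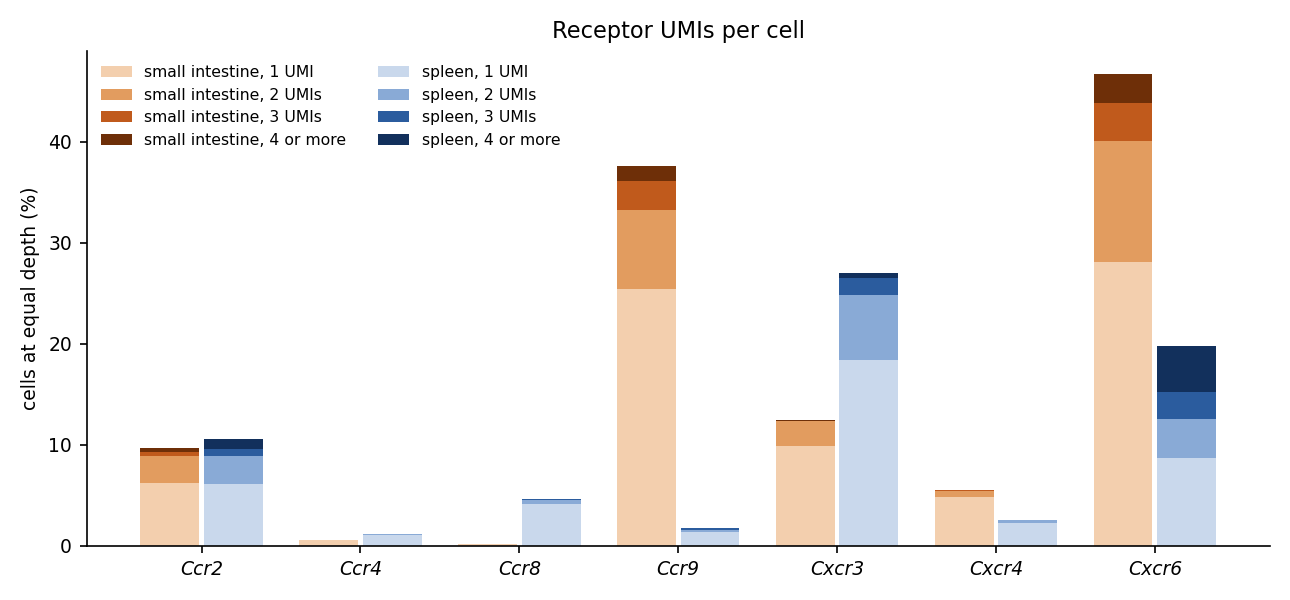
Share of cells, in percent, with 1, 2, 3 or at least 4 UMIs of each receptor at equal depth, small intestine in orange and spleen in blue, darker with more UMIs. Splenic Cxcr6 has the largest part of cells with at least 4 UMIs (66 of 1439 cells), while Ccr9 and Cxcr6 of the small intestine lie mostly at 1 UMI.

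Ccl5 encodes a chemokine of effector and cytotoxic T cells and separates the cells of both libraries, so the receptors were compared between Ccl5-high cells (at least 20 Ccl5 UMIs per 10000 UMIs of the cell) and the others. These were 1121 small intestinal cells (87.7%) and 191 of the 1469 splenic cells, and 79 small intestinal cells (6.18%) and 69 splenic cells (4.70%) lay between 10 and 40 per 10000, near the cut. How far free Ccl5 RNA in the droplets moved cells across this cut was not tested. The state is a range of a value and not a cell type. Foxp3 UMIs move with it, since 0.803% of the Ccl5-high and 12.1% of the other small intestinal cells had one, and 6.28% and 21.0% in the spleen.

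In the small intestine the receptors were lower in the Ccl5-high cells, for Cxcr3 not at each cut tried, and in the spleen Cxcr6 and Ccr2 were higher in them. Ccr2 stood at 46.9 CPM in the Ccl5-high and 270 CPM in the other small intestinal cells (log2 ratio -2.53, -2.82 to -2.23), and was found at equal depth in 6.35% and 33.1% of cells. In the spleen the values were 222 and 74.2 CPM (log2 ratio 1.58, 1.36 to 1.81), with shares of 25.5% and 8.37%. Read the other way, 57.7% of small intestinal cells with a Ccr2 UMI at equal depth were Ccl5-high against 90.9% of those without, and 30.9% against 10.6% in the spleen.

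Cxcr6 stood at 739 CPM in the Ccl5-high and 189 CPM in the other splenic cells (log2 ratio 1.96, 1.84 to 2.09), and was found in 54.3% and 14.7% of them at equal depth. Small intestinal Cxcr6 stood at 348 and 526 CPM, a log2 ratio of -0.60 (-0.77 to -0.42), and the shares of 46.8% and 45.8% differed by 1.05 points (-7.70 to 9.60), an interval that holds 0. Small intestinal cells outside the Ccl5-high state held more Cxcr6 UMIs each, 3.88 per cell with a UMI against 2.20.

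Ccr9 stood at 236 CPM in the Ccl5-high and 474 CPM in the other small intestinal cells, which gave -1.003 (-1.19 to -0.82) on the log2 scale, at the edge of 2-fold. It lay between -0.66 and -1.02 in the other ways of drawing the comparison, and the shares at equal depth, 36.6% and 45.1%, differed by -8.46 points (-17.2 to 0.04). Cxcr4 stood at 26.5 and 67.9 CPM (-1.36, -1.86 to -0.82) and Cxcr3 at 60.2 and 104 CPM (-0.79, -1.18 to -0.39), whose direction turned (0.37) with the cut at 5 Ccl5 UMIs per 10000. Ccr4 had 5 UMIs in the Ccl5-high and 10 in the other cells, 1.14 and 15.1 CPM. Ccr8 had 0 and 6 UMIs, which makes it 13.2-fold higher in the other cells when the Ccl5-high cells are set at 3 UMIs for the group. Its exact log2 interval, which also covers the counting error of the 6 UMIs, ends at -2.96. In the spleen the intervals of Ccr4, Ccr8, Ccr9, Cxcr3 and Cxcr4 held 0, from -1.45 (-3.76 to 0.16) in Ccr4, with 3 UMIs in Ccl5-high cells, to 0.78 (-0.17 to 1.63) in Cxcr4.

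Among all genes with at least 50 UMIs in the small intestine, 4.72% were at least 2-fold higher and 5.78% at least 2-fold lower in the Ccl5-high cells. Of the 5 receptors with as many UMIs, 0 were at least 2-fold higher and 3 at least 2-fold lower (Ccr2, Cxcr4, Ccr9). All genes had a median log2 ratio of -0.14 in this comparison, and the 5 receptors one of -1.003. In the spleen 2.57% of genes were at least 2-fold higher and 5.04% at least 2-fold lower, and of the 7 receptors 2 were higher (Cxcr6, Ccr2) and 1 lower, Ccr4, whose interval held 0. The medians there were -0.07 for the receptors and -0.04 for all genes.

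Set side by side within a state, the tissues differed as follows. Ccr9 was higher in the small intestine in the Ccl5-high cells (log2 ratio 4.48, 3.63 to 5.49) and in the others (5.03, 4.72 to 5.35), and so was Cxcr4 (0.98, 0.17 to 1.89, and 3.11, 2.52 to 3.68). For Cxcr4 the splenic Ccl5-high cells gave 14 UMIs, and the shares of Ccl5-high cells at equal depth differed by 2.64 points (-0.60 to 4.42), an interval that holds 0. The level of Cxcr6 was lower in the small intestine among Ccl5-high cells (-1.09, -1.21 to -0.96) and higher among the others (1.47, 1.30 to 1.64). Its shares at equal depth among Ccl5-high cells, 46.8% and 54.3%, differed by -7.52 points (-15.2 to 0.32), an interval that holds 0. Ccr2 also changed direction, at -2.25 (-2.52 to -1.97) among Ccl5-high cells and 1.86 (1.61 to 2.11) among the others. Cxcr3 was lower in the small intestine in both (-1.27, -1.57 to -0.97, and -0.64, -1.01 to -0.29). Ccr8 was 1.65 lower on the log2 scale among the other cells (6 against 230 UMIs). Among Ccl5-high cells it was 39.3-fold higher in the spleen with the small intestinal group set at 3 UMIs (0 against 28 UMIs). The exact log2 interval among Ccl5-high cells ends at -4.90. Ccr4 stood at -1.34 (-3.70 to 1.35, 5 against 3 UMIs) among Ccl5-high cells and 0.94 (-0.19 to 1.91, 10 against 64 UMIs) among the others. Both of its intervals held 0, so its higher level in the spleen over all cells was not seen within either state. For Ccr2 and Cxcr6 the level over all cells thus joined differences in level of opposite direction in the 2 states, whose sizes differ between the tissues.

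**Figure D4:**
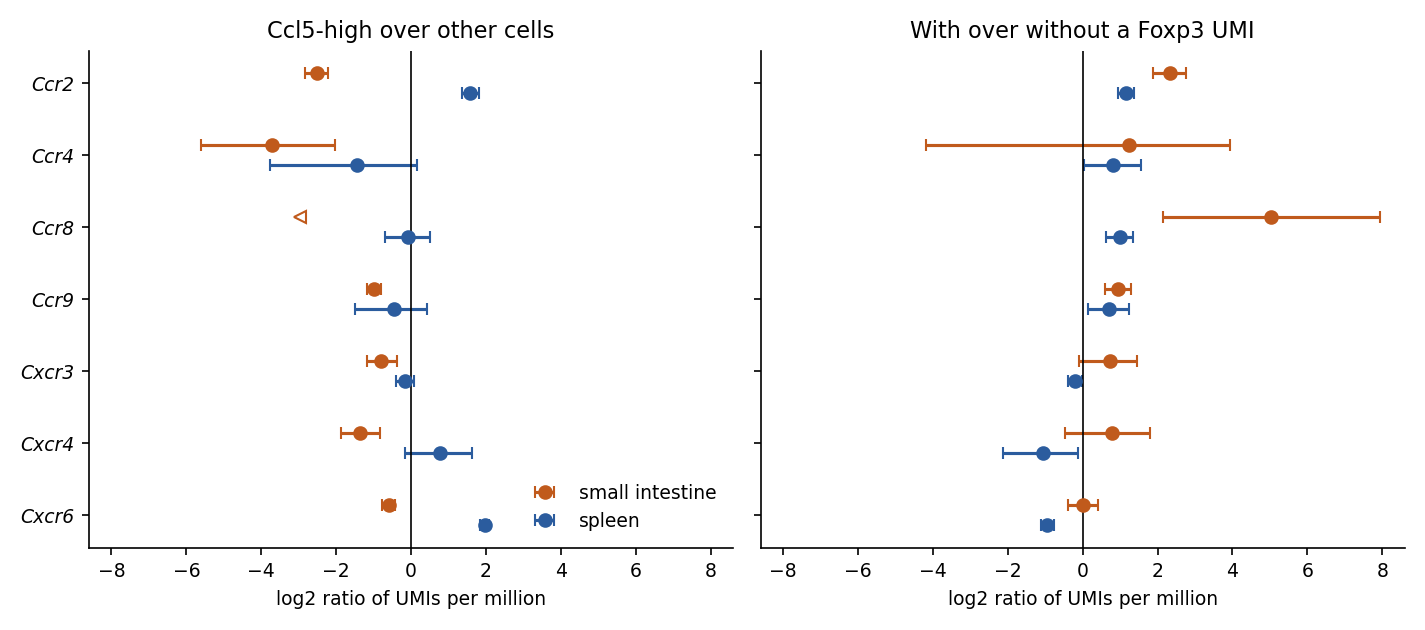
Log2 ratio of UMIs per 1000000 of the 7 receptors, Ccl5-high over other cells (left) and cells with over cells without a Foxp3 UMI (right), within the small intestine (orange) and the spleen (blue), with exact 95% intervals. The open triangle is the upper bound for Ccr8, with 0 UMIs in the Ccl5-high small intestinal cells. Ccr2 and Cxcr6 lie on opposite sides of 0 in the tissues on the left, and Ccr2 lies above 0 in both tissues on the right.

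Foxp3, the lineage factor of regulatory T cells, had a UMI in 280 splenic cells (19.1%) and 28 small intestinal cells (2.19%). Foxp3-expressing cells in which its RNA was not captured are among the cells without, and the splenic cells with a UMI were deeper (median 7686 against 5051 UMIs), so levels and shares at equal depth are given. Of the splenic cells with a Foxp3 UMI 4.29% were Ccl5-high, and of those without 15.1%.

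In the spleen Ccr2 and Ccr8 were higher, and Cxcr6 and Cxcr4 lower, in cells with a Foxp3 UMI. Ccr2 stood at 155 CPM with and 69.4 CPM without (log2 ratio 1.16, 0.95 to 1.36), and at equal depth in 18.1% and 8.78% of cells. Ccr8 stood at 44.7 and 22.5 CPM (0.99, 0.61 to 1.36), just under 2-fold, and in 8.30% and 3.70% of cells. Its presence in cells without a Foxp3 UMI, 43 of 1162 at equal depth, shows that Ccr8 RNA was not limited to the cells in which Foxp3 was seen.

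Cxcr6 stood at 149 CPM in the splenic cells with and 287 CPM in those without a Foxp3 UMI (-0.94, -1.11 to -0.78), and at -0.45 (-0.63 to -0.27) when the Ccl5-high cells, which are rich in Cxcr6, were left out. The shares of 16.2% and 20.7% differed by -4.41 points (-8.98 to 0.88), an interval that holds 0. Cxcr4 had 11 UMIs with and 67 without (4.72 and 9.81 CPM, -1.05, -2.12 to -0.12). Cxcr3 was close in both (144 and 165 CPM, -0.20, -0.38 to -0.02), Ccr9 stood at 19.8 and 12.1 CPM (0.70, 0.15 to 1.24), and Ccr4 at 10.7 and 6.15 CPM (0.80, 0.03 to 1.55).

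Of all genes with at least 50 UMIs in the spleen, 1.44% were at least 2-fold higher and 2.54% at least 2-fold lower in cells with a Foxp3 UMI. Of the 7 receptors, 1 was higher (Ccr2) and 1 lower (Cxcr4). Their median log2 ratio was 0.70, and that of all genes 0.04.

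The 28 small intestinal cells with a Foxp3 UMI are few, and 32.1% of them were Ccl5-high, against 88.96% of the cells without. Ccr2 stood at 342 CPM in them and 68.2 CPM in the rest (2.33, 1.87 to 2.75), and Ccr9 at 502 and 260 CPM (0.95, 0.59 to 1.28). When the Ccl5-high cells were left out these log2 ratios were 0.62 and 0.14. Of all genes 8.05% were at least 2-fold higher and 13.2% at least 2-fold lower in the 28 cells, and of the 5 receptors with at least 50 UMIs 1 was higher (Ccr2) and 0 lower. Ccr8 had 3 UMIs in the 28 cells and 3 in the 1250 others, a ratio of 32.7 with a log2 interval of 2.13 to 7.93. Cxcr6 was close in level (375 and 372 CPM, 0.01, -0.40 to 0.40) and was found at equal depth in 22.2% against 47.3% of cells (-25.1 points, -37.04 to -6.30).

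Among cells with a Foxp3 UMI the tissues differed in Ccr9 (502 CPM in small intestinal and 19.8 CPM in splenic cells, 4.67, 4.12 to 5.23), Ccr2 (342 and 155 CPM, 1.14, 0.69 to 1.57) and Cxcr6 (375 and 149 CPM, 1.33, 0.90 to 1.74). Cxcr4 differed too (53.6 and 4.72 CPM, 3.50, 1.99 to 4.95), from only 8 and 11 UMIs. Cxcr3 (107 and 144 CPM, -0.43, -1.25 to 0.30), Ccr8 (3 and 104 UMIs, -1.15, -3.45 to 0.43) and Ccr4 (1 and 25 UMIs, -0.68, -6.04 to 1.93) had intervals that held 0. All genes in this comparison had a median of -0.10.

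Since the sort was for the IL-10 reporter, cells were also split by an Il10 UMI, although cells with 1 are deeper (median 6067 against 4460 UMIs in the spleen). A Foxp3 UMI was found in 25.5% of the splenic cells with and 7.17% of those without an Il10 UMI. The part of Foxp3 in the ratios below was not tested. In the spleen Ccr4 had 64 UMIs in the 953 cells with and 3 UMIs in the 516 cells without an Il10 UMI, a log2 ratio of 3.08 (1.47 to 5.40). Ccr9 (1.199, 0.49 to 1.99), Ccr8 (0.69, 0.24 to 1.16), Ccr2 (0.64, 0.40 to 0.89) and Cxcr6 (0.62, 0.47 to 0.76) were also higher with Il10, while Cxcr3 (0.08, -0.09 to 0.25) and Cxcr4 (0.01, -0.72 to 0.80) had intervals that held 0. The median of all genes was 0.10 here. For small intestinal cells the log2 ratio of Ccr2 was 0.65 (0.26 to 1.061) and that of Ccr9 0.34 (0.14 to 0.54), and the intervals of Cxcr3, Cxcr4, Cxcr6, Ccr4 and Ccr8 (6 and 0 UMIs) held 0.

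Clusters of cells were drawn in each library without the chemokine receptor genes, and they are called here by their number and leading genes. The small intestine gave 6 clusters and the spleen 7. In the small intestine the level of each of the 7 receptors was highest in cluster 4 (leading genes Capg and Emb, 172 cells), in which 12.2% of cells were Ccl5-high, 12.8% had a Foxp3 UMI, and Il17a, a cytokine of type 17 helper cells, stood at 338 CPM. The level there was 273 CPM for Ccr2, 467 for Ccr9, 517 for Cxcr6, 124 for Cxcr3, 78.5 for Cxcr4, 15.7 for Ccr4 and 7.14 for Ccr8 (5 of its 6 UMIs). For Cxcr3, Cxcr4, Ccr4 and Ccr8 the interval of cluster 4 overlapped that of at least 1 other cluster.

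Cluster 5 of the small intestine (Gzma and Cd8a, 138 cells), in which Cd8a stood at 1210 CPM, had the lowest levels of Ccr9 (144 CPM), Ccr2 (8.46 CPM) and Cxcr4 (5.64 CPM). Its Cxcr6 level was 413 CPM, and its share of cells with Cxcr6, 57.1% at equal depth, was the highest of the 6 clusters. Ccr9 was found in each small intestinal cluster, in 21.8% of cells of cluster 5 and up to 46.1% of cells of cluster 3 (Ccl5 and Lag3). Cxcr3 was lowest in cluster 1 (Ccl5 and Gzma) at 31.2 CPM and stood at 94.9 CPM in cluster 2 (Gzma and Ccl5). Cxcr4 was high in cluster 6 (Gzma and Tnfrsf4) too, at 63.6 CPM.

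In the spleen Cxcr6 ranged from 9.46 CPM in cluster 7 (Ncl and Eif5a) to 851 CPM (791 to 914) in cluster 6 (Ccl5 and Ccl4, of which 90.4% were Ccl5-high). It was as high as 750 CPM (699 to 803) in cluster 5 (S100a6 and Lgals1), of which only 11.6% were Ccl5-high, so high Cxcr6 was not limited to the Ccl5-high state there. Ccr2 was high in cluster 3 (Tnfrsf9 and Tnfrsf4, 201 CPM, with a Foxp3 UMI in 55.8% of cells) and in cluster 6 (184 CPM), whose intervals overlapped, and low in cluster 7 (5.26 CPM). Ccr8 was highest in cluster 3, at 83.1 CPM (69.9 to 98.1), and next highest in cluster 5, at 25.6 CPM (17.0 to 37.04).

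Splenic Ccr9 was found in cluster 4 (Hmgb2 and Stmn1, 26.5 CPM, 58 UMIs) and cluster 3 (25.7 CPM, 43 UMIs), and had 2 UMIs in cluster 1 (Malat1 and Pdcd4) and 0 in cluster 7. With cluster 7 set at 3 UMIs for the group, it was 8.39-fold higher in cluster 4, a value that leaves out the counting error of the 58 UMIs. Cluster 4 was the deepest of the splenic clusters, with a median of 9695 UMIs per cell. Ccr4 was highest in the same cluster (14.6 CPM, 32 UMIs), with an interval of 9.98 to 20.6 CPM that overlapped that of cluster 3 (10.2 CPM). Cxcr3 varied least over the splenic clusters, from 110 CPM in cluster 7 to 234 CPM in cluster 2 (Tnfsf8 and Malat1), which also had the highest Cxcr4 level (16.6 CPM).

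No cluster is a cell type known to lack these receptors, so the background of free RNA in the droplets was not measured. The shares in low clusters are given instead. At equal depth Ccr9 was found in 0 of 271 cells of splenic cluster 1, which by the limit of 3 counts allows up to 1.11%. Cxcr6 was found in 1.53% of the cells of splenic cluster 7. In the small intestine the low clusters still held Ccr9 in 21.8% and Cxcr6 in 39.4% of cells. Cd8a, at 1210 CPM in cluster 5 of the small intestine, had 0 UMIs among the 659078 UMIs of cluster 3 and 2.86 CPM in cluster 4. Its levels in the remaining clusters are not given here, and Cd8a was not kept out of the clustering. A Cd8a or Cd8b1 UMI was found in 204 small intestinal cells, more than the 138 cells of cluster 5. Some of these cells thus lay in other clusters. Ccl5 behaved otherwise, since only 6 of 1278 small intestinal cells had no Ccl5 UMI, against 815 of 1469 splenic cells. Outside the Ccl5-high state the median was 8.03 Ccl5 UMIs per 10000 for small intestinal and 0 for splenic cells. The part of free RNA in these values, and so in the split by Ccl5, was not tested.

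**Figure D5:**
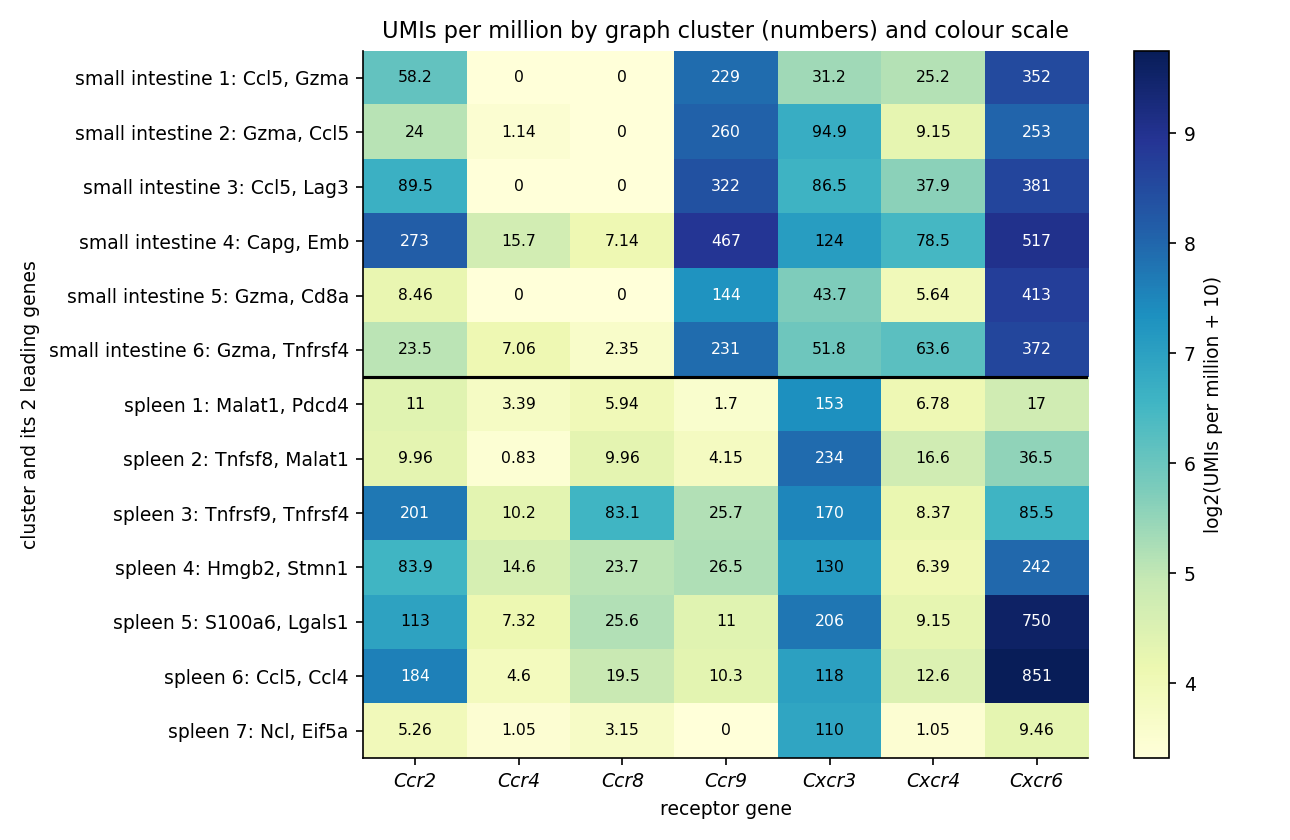
UMIs per 1000000 of the 7 receptors (numbers) in the 6 small intestinal and 7 splenic clusters, with the colour on a scale of log2(UMIs per 1000000 + 10), the same for all genes, and clusters called by their number and 2 leading genes. In the small intestine each receptor is highest in cluster 4, and in the spleen Cxcr6 is highest in clusters 5 and 6 and Ccr8 in cluster 3.

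Over the 13 clusters of both libraries, the genes whose level (log2(CPM + 10)) ran most like that of a receptor were named among 7727 or 7728 genes with at least 100 UMIs. These were Acsbg1 (Pearson r 0.976), Wnk1 and Prrt1 for Ccr9, Gpr107 (0.954), Tmem203 and Fam107b for Cxcr4, and Leprot (0.948), Myo1f and Anxa4 for Cxcr6. For Cxcr3 they were Msn (0.948), Sepw1 and Csk, and for Ccr8 Itgb8 (0.915), Lclat1 and Psen2. For Ccr4 they were Nsmce2 (0.903), Capg and Cdc123, and for Ccr2 Rap1b (0.878), Tmem154 and Tm2d2. Clusters of a tissue share a library and its depth, so a gene that differs between the libraries can correlate for that alone. Between the receptors r was highest for Ccr9 and Cxcr4 (0.70) and lowest for Ccr9 and Cxcr3 (-0.65).

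Other chemokine receptors with at least 50 UMIs were compared in the same way. Ccr1 stood at 18.7 and 2.18 CPM in small intestinal and splenic cells (3.10, 2.39 to 3.87). Ccr7 (10.9 and 86.4 CPM, -2.98), the follicular receptor Cxcr5 (1.59 and 66.3 CPM, -5.38) and Ccr6 (3.18 and 7.64 CPM, -1.27) were lower in the small intestine, while Ccrl2 (0.73) and Cx3cr1 (0.71) did not reach 2-fold.

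Of 13 ligands of the 7 receptors 12 were listed, and only Ccl25, the CCR9 ligand, and Cxcl10, a CXCR3 ligand, had at least 50 UMIs over both libraries. Ccl25 had 63 small intestinal and 77 splenic UMIs (12.5 and 8.40 CPM, 0.57, 0.07 to 1.07), and Cxcl10 had 26 and 59 UMIs (5.17 and 6.44 CPM, -0.32, -1.04 to 0.37). Neither reached 2-fold.

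Of 20 listed genes of receptor signalling and its damping (of 21 named), 19 had at least 50 UMIs, and 5 were at least 2-fold higher and 0 at least 2-fold lower in the small intestine, against 10.4% and 13.6% of all genes. These were Rgs1 (1750 and 260 CPM, 2.75, 2.68 to 2.82) and Rgs2 (171 and 24.8 CPM, 2.79), regulators that shorten G protein signals, the arrestins Arrb1 (7.55 and 3.17 CPM, 1.25) and Arrb2 (112 and 49.1 CPM, 1.19), which uncouple stimulated receptors, and the kinase subunit Pik3cg (30.8 and 14.6 CPM, 1.07). Their median log2 ratio, over the 19 genes, was 0.45.

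Overlaps between genes could limit some values, depending on how reads were counted. The study names a standard Cell Ranger pipeline, and the strand setting used by the authors is not given in the sources used here. Without strand, reads of Cxcr6 could not be told from those of Fyco1, which touches 4 of its exons on the other strand and stood at 17.9 CPM in small intestinal and 11.8 CPM in splenic cells. The long gene model of Ccr9 overlaps Slc6a20a (2 and 0 UMIs) and Lztfl1 (152 and 35.4 CPM, 2.10), also on the other strand, of which Lztfl1 touches 0 of its exons. On the other strand AC165425.1 touches 9 of its exons, and on the same strand the lincRNA Gm17200 touches 1, and how reads of Ccr9 were divided among these was not tested. No other chemokine receptor gene shared a run of 31 bases with any of the 7 in the last 500 bases of their transcripts. Such runs were shared with other genes by Ccr9 (376 genes, at most 10 of its 2079 runs with any 1 of them) and by Ccr4 (1 gene, 4 runs).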

How the data were processed

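Droplet libraries of IL-10eGFP+ CD4+ T cells from the spleen and the small intestine were analysed, 1 per tissue. The deposited tables hold counts of UMIs per gene and cell, which the authors made with Cell Ranger after Trimmomatic, aligned to mm10 (mm8, also in the submitters' processing notes, is named in the study's methods for SMART-seq2 reads, not used here). Cells were left out at 3 median absolute deviations in UMIs, genes or mitochondrial share (135 small intestinal and 90 splenic) or as G2/M by cyclone (61 and 179), after the study's methods, with R 4.3.3 and scran 1.30.0. Fewer cells were kept for each tissue than the study reports, so the sets of cells are not the same. Scrublet (scanpy 1.11.5) marked 4 barcodes in each library as doublets, which were kept in the main values. UMIs were summed over cells and scaled to 1000000 (Python 3.11.15, scipy 1.17.1). Levels have exact Poisson, ratios exact conditional binomial, shares Clopper-Pearson and differences of shares Newcombe 95% intervals. No test was run, since cells are not replicates. Genes were called past 2-fold from 50 UMIs in both groups together. Equal depth is the 10th percentile of small intestinal UMIs (2089). Louvain clusters used 10 neighbours and 20 principal components of variable genes without the listed chemokine receptors (Ccr2, Ccr7 and Cxcr6 would have entered in the spleen). Scripts were tested on simulated counts. The 7 receptors, the gene lists and the Ccl5 cut were chosen with earlier results of these data known. Some genes of the lists are not reported here. Named were the 7 receptors, other receptors and ligands with at least 50 UMIs, genes of the other lists past 2-fold between tissues, 2 leading genes per cluster and the 3 genes most like each receptor over clusters.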

Additional observations from a re-analysis of the deposited data

Results flagged for a closer look

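The receptors Ccr2 and Cxcr6 ran in opposite directions with the Ccl5 state in the 2 tissues. The log2 ratio of Ccl5-high over other cells was -2.53 for small intestinal and 1.58 for splenic Ccr2, and -0.60 for small intestinal and 1.96 for splenic Cxcr6. With 1 library per tissue the difference between the tissues was not tested, and the Ccl5 states were not matched between them. For Ccr2 the direction in each tissue was the same in the 9 other ways of drawing the comparison, from -2.62 to -1.50 (small intestine) and from 1.18 to 2.12 (spleen). For Cxcr6 it was the same in these 9 as well, between -0.64 and -0.37 and between 1.85 and 2.17. The Cxcr6 difference in the small intestine was one of UMIs per cell and was not seen in the share of cells (46.8% and 45.8%).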

How the results depend on the processing

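No paired analysis was possible because each tissue has 1 library. Leaving out barcodes found in both libraries gave no other value, since 0 are shared. Of the tissue log2 ratios under other settings, 51 moved by less than their counting interval, 4 by more and 1 changed sign. Ccr2 was 0.00105 without cells with a Cd8a or Cd8b1 UMI, a change of sign, and -0.0250 without cells with a Foxp3 UMI, which also put Cxcr6 at 0.37. Thinned counts put Ccr9 at 4.59 and Cxcr4 at 1.19. Share differences depend on the number of UMIs by construction. At 1500 UMIs they were 27.96 points for Ccr9 and 19.1 for Cxcr6, and at 3000 UMIs 44.4 for Ccr9, 36.8 for Cxcr6, 6.19 for Cxcr4, -6.89 for Ccr8 and -18.9 for Cxcr3. Over other thinning seeds Ccr8 reached -5.94 and Cxcr4 4.71 points. The mean over all thinnings was an alternative chosen after seeing the data, as were median-ratio scaling for the Ccl5 and Foxp3 comparisons and leaving out cells near the Ccl5 cut.

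With the Ccl5 cut at 5 per 10000 Cxcr3 turned to 0.37 in the small intestine. In the spleen Ccr4 was no longer called, leaving 0 receptors lower, with that cut (-0.72), with graph clusters as the state (-0.72), and without cells with a Foxp3 UMI (-1.09, but under 50 UMIs). Of all genes 5.04% were lower there as reported. With at least 2 Foxp3 UMIs Ccr4 turned to -0.0187 in the spleen. The counts by Foxp3 UMI changed most. In the spleen 3 receptors were past 2-fold higher with at least 2 Foxp3 UMIs or with per-cell CPM, and 2 with a Foxp3 UMI after thinning, without Ccl5-high cells or with G2/M cells kept, against 1. Lower were 2 with at least 2 Foxp3 UMIs and 0 after thinning or with G2/M cells, against 1. Of all splenic genes compared 1.44% were higher and 2.54% lower as reported, and 1.61% and 2.27% without Ccl5-high cells. In the small intestine 2 were higher with at least 2 Foxp3 UMIs, 3 after thinning or with per-cell CPM and 0 without Ccl5-high cells, against 1, and 1 was lower after thinning or without Ccl5-high cells, against 0 (8.05% of all genes were higher and 13.2% lower there). For the other settings in this paragraph the shares of all genes were not computed. The counts under those settings therefore cannot be read as results about the receptors. The causes were not tested.

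The number of genes past 2-fold fell as the minimum of UMIs rose. Between the tissues 513 were higher and 745 lower from 200 UMIs, against 939 and 1225 from 50. For the Ccl5 state 578 and 791 (from 20 UMIs) and 96 and 92 (from 200) were higher and lower in the small intestine, against 324 and 397, and 374 and 733, and 67 and 96, in the spleen, against 209 and 409. By Foxp3 UMI in the spleen they were 240 and 412, and 30 and 62, against 117 and 206. Clustering with 20 neighbours gave as many clusters. Depth limits Ccr4 and Ccr8 most, with 15 and 6 UMIs in the small intestine.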

Other observations

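Other genes of T cell trafficking and transcription factors linked to receptor genes were read by the same rule, beside the 10.4% of all genes that were at least 2-fold higher and the 13.6% that were at least 2-fold lower in the small intestine. Among the higher trafficking genes were Itgae (171 CPM against 4.26 CPM for the spleen, log2 ratio 5.33, 4.86 to 5.83), the integrin chain that binds E-cadherin of epithelium, Cd69 (285 and 87.5 CPM, 1.71), which holds cells in tissue, and Selplg (759 and 345 CPM, 1.14), the selectin ligand. Among the lower were S1pr1 (4.17 and 55.1 CPM, -3.72), needed to leave tissue for lymph, its activator Klf2 (25.8 and 270 CPM, -3.39) and Gpr183 (28.8 and 105 CPM, -1.86), an oxysterol receptor. Itgb7, which pairs with Itgae and Itga4 in gut-homing integrins, stood at 321 and 389 CPM.

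Of 13 transcription factors 12 had at least 50 UMIs, of which 7 were higher and 1 lower in the small intestine. Id2 (2138 and 453 CPM, 2.24), Zeb2 (79.5 and 18.0 CPM, 2.14), Bhlhe40 (243 and 68.2 CPM, 1.83), Runx3 (249 and 76.7 CPM, 1.70), Rora (92.0 and 34.7 CPM, 1.41), Gata3 (58.6 and 27.8 CPM, 1.07) and Bcl6 (9.73 and 2.18 CPM, 2.16) were higher, and Foxp3 (7.55 and 51.2 CPM, -2.76) was lower. The direction of Bcl6 was opposite to that of the follicular receptor Cxcr5 (-5.38). In the Ccl5-high cells of the small intestine Tbx21 was higher (35.5 and 4.53 CPM, 3 UMIs in the other cells, 2.97, 1.40 to 5.26) and Rora lower (71.6 and 226 CPM, -1.66, -1.95 to -1.37).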
